A study of Mus musculus with 12 samples.

Results

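Small leucine-rich proteoglycans (SLRPs) are secreted matrix proteins with a core of leucine-rich repeats, which in most members carries chondroitin, dermatan or keratan sulphate chains. Their levels were followed in mouse breast tumours for 7 genes, Dcn, Bgn, Aspn, Lum, Fmod, Prelp and Ogn, chosen by family and found by symbol among the 25116 genes of the deposited count table. The RNA came from 12 tumours of E0771, a mouse triple-negative breast cancer line, implanted in the mammary fat pads of syngeneic Tie2CreER;ERKi C57BL/6J mice and taken at day 22. All hosts carried both transgenes, the Tie2CreER recombinase, which tamoxifen activates in endothelium, and ERKi, the inducible knock-in of endorepellin, the C-terminal part of the basement membrane proteoglycan perlecan. The 5 control tumours grew in mice given a control injection of a composition that the labels do not state, and the 7 induced tumours in mice given tamoxifen. The tumour origin is taken from the series' design text, and the line, host genotype and group from the sample labels; the growth and treatment text in the same labels describes fat cell differentiation of a mesenchymal line in culture and does not match tumours. Tamoxifen was given only to the induced mice, so an effect of the drug and an effect of endorepellin cannot be told apart. The sources used here do not give the age of the mice or whether any shared a cage or litter, so p-values measure the spread between these tumours.

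SLRPs bind along collagen fibrils, where they limit fibril width and keep fibrils apart, and several also bind growth factors or their receptors. They are mostly made by fibroblasts and other connective tissue cells, and decorin in particular is known as a restraint on growth factor receptor signalling in tumours. Class I holds decorin, biglycan and asporin, class II holds lumican, fibromodulin and PRELP, and class III holds osteoglycin.

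Total counts ranged from 18993192 to 28372821 per tumour, and the values below are CPM, counts scaled to the same library size with TMM factors, which correct for differences in RNA composition. Of the 7 genes, 6 passed the filter on low counts and Fmod did not. Epithelial and skin markers were low in these tumours of a mammary carcinoma line. The 8 such markers in the table, among them Epcam, Krt8 and Cdh1, summed to between 1.79 CPM and 8.15 CPM per tumour. Krt5, Krt14, Krt18, Krt19 and Cldn4 were at 0 in at least 1 tumour. The share of RNA from carcinoma cells was not tested.

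The main feature of the family was a large difference between single tumours. No tested member was called between groups, but for all of them except Prelp the intervals given below were wide. Control 1 and induced 4 held the highest level of 6 of the 7 genes, with control 1 always first, and Prelp was the exception. The same pair was highest for 8.01% of the 15199 genes tested, which is the background for this count, and the pair was singled out after these values were seen. The plot of levels by tumour shows both points apart from the rest in every panel but that of Prelp.

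**Figure D1:**
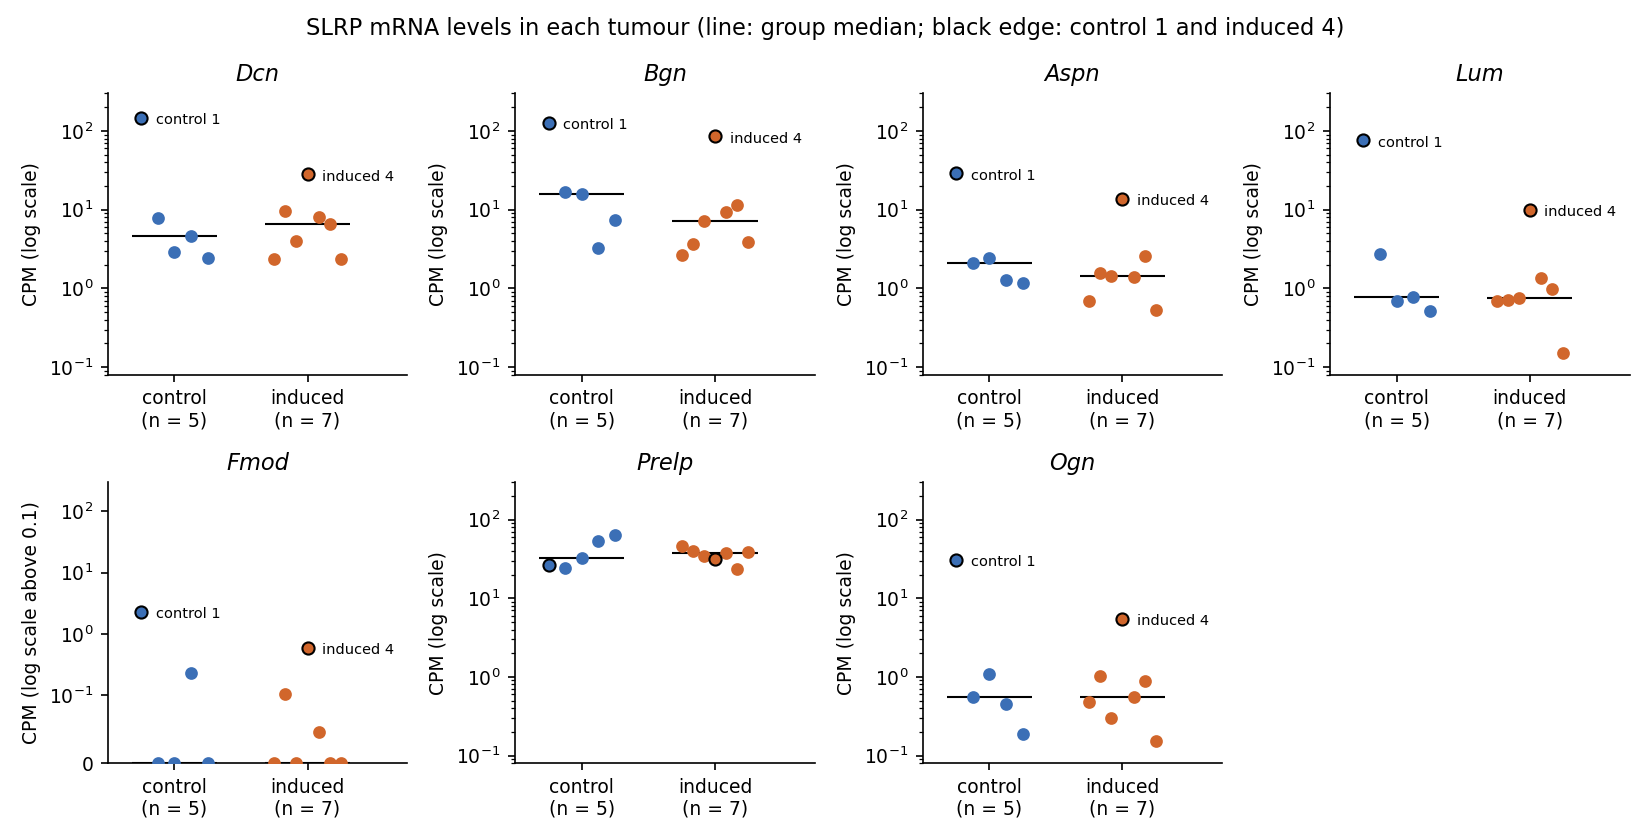
Level of each SLRP gene in each tumour in CPM on a log axis (for Fmod linear below 0.1), with 1 point per tumour, blue for control (n = 5) and orange for induced (n = 7), and a line at the group median. Control 1 (2.25 CPM of Fmod to 146.5 CPM of Dcn) and induced 4 stand above the other tumours in 6 panels, while the 12 Prelp values lie between 23.2 CPM and 63.1 CPM.

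Decorin (Dcn), the founding member of the family, which coats collagen fibrils and binds receptors such as EGFR and MET, varied over a 62.9-fold range. The control tumours 1 to 5 held 146.5, 7.85, 2.93, 4.58 and 2.45 CPM. The induced tumours ranged from 2.33 CPM in induced 7 over a median of 6.52 CPM to 28.2 CPM in induced 4. The groups overlapped, and apart from control 1 and induced 4 no tumour exceeded 9.59 CPM. The median was lower in control (4.58 CPM) than in induced tumours, although the mean was higher, at 32.9 ± 63.6 CPM against 8.72 ± 9.02 CPM (SD, n = 5 and n = 7).

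Biglycan (Bgn), which binds collagen and, once released from matrix, activates the innate receptors TLR2 and TLR4, was, among the 6 genes highest in this pair, the one in which induced 4 came closest to control 1. Control tumours 1 to 5 held 125.6, 16.7, 16.0, 3.22 and 7.49 CPM. Induced tumours ranged from 2.64 CPM in induced 1 over a median of 7.13 CPM to 85.5 CPM in induced 4. Control 1 was 1.47-fold above induced 4, and induced 4 was 5.125-fold above the next tumour, control 2. Asporin (Aspn), a class I member with an aspartate-rich N-terminus that binds TGF-beta and carries no such sulphated chain, had the same pair of tumours highest. Control tumours 1 to 5 held 29.0, 2.10, 2.44, 1.27 and 1.18 CPM of Aspn, and induced tumours ranged from 0.534 CPM in induced 7 over 1.42 CPM to 13.6 CPM in induced 4. Control 1 was 2.13-fold above induced 4, so for both Bgn and Aspn the gap between these tumours was smaller than for Dcn, where it was 5.20-fold.

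Lumican (Lum), a class II member known for ordering collagen fibrils in the cornea, had the widest range of the tested members. Control tumours 1 to 5 held 76.1, 2.70, 0.684, 0.772 and 0.518 CPM. Induced tumours ranged from 0.153 CPM in induced 7, which rests on 4 counts, over a median of 0.759 CPM to 10.0 CPM in induced 4. The group medians were thus nearly the same, and control 1 was 7.57-fold above induced 4. Osteoglycin (Ogn), the class III member, also called mimecan, had a like pattern. Control tumours 1 to 5 held 30.7, 0.561, 1.08, 0.454 and 0.189 CPM of Ogn, and induced tumours ranged from 0.153 CPM in induced 7 over 0.555 CPM to 5.46 CPM in induced 4. Fibromodulin (Fmod), a collagen-binding member of tendon matrix, was close to the detection limit. It had 65 counts in control 1, 16 in induced 4, 5 in control 4, 2 in induced 2 and 1 in induced 5. The other 7 tumours had 0 counts, which allows at most 0.105 CPM to 0.158 CPM by a limit of 3 counts. Fmod had no fold change in the main edgeR fit, as the filter removed it.

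PRELP (Prelp), a class II member with a basic N-terminus that binds heparan sulphate, including that of perlecan, and links basement membranes to collagen, had a different pattern. Control tumours 1 to 5 held 26.8, 23.9, 32.4, 52.7 and 63.1 CPM. Induced tumours ranged from 23.2 CPM in induced 6 over a median of 37.9 CPM to 46.7 CPM in induced 1. Its range over the 12 tumours was 2.71-fold, and control 1 and induced 4 (31.4 CPM) lay in the lower part of it. The standard deviation of log2 CPM over the 12 tumours was 0.44 for Prelp and between 1.61 for Aspn and 2.20 for Lum in the other tested members, beside a median of 0.31 over all tested genes.

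Levels of different genes were compared only per kilobase of exon, where the length is the union of all annotated exons of a gene. This length was 5838 bases for Dcn, 6099 for Bgn and 2448 for Lum. It can exceed that of the transcripts present, which were not measured, so the order of genes depends on it. By this measure Prelp was the leading SLRP in 10 of the 12 tumours, with a median of 9.96 CPM per kb, followed by Bgn at 1.38, Dcn at 0.951, Aspn at 0.629, Lum at 0.313, Ogn at 0.217 and Fmod at 0. Neighbours in this order from Bgn to Aspn differed by less than their spread over tumours, and the rank of Bgn within a tumour ran from 1 to 4. In control 1 the order was another, with Lum first at 31.1 CPM per kb, then Dcn at 25.1, Bgn at 20.6, Aspn at 12.3, Ogn at 11.97 and Prelp sixth at 7.41. Before division by length Lum was not first there, with 76.1 CPM against 146.5 CPM of Dcn and 125.6 CPM of Bgn. In induced 4 Bgn was first at 14.0 CPM per kb and Prelp second at 8.69.

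The summed per-length level of the 7 genes was 109.1 CPM per kb in control 1, 39.7 in induced 4 and between 11.2 and 19.9 in the other 10 tumours. Prelp made up 6.79% of that sum in control 1, 21.9% in induced 4 and from 51.3% to 89.0% elsewhere. Both tumours with a high sum also differed from each other in its makeup. Among the 6 genes other than Prelp, Lum took 30.6% in control 1 and 13.2% in induced 4, where the remaining tumours ranged from 4.52% to 17.6%. Bgn took 20.2% in control 1 and 45.2% in induced 4, within the range of 16.5% to 53.9% of the remaining tumours. The ratio of Bgn to Dcn per length was 0.821 in control 1 and 2.90 in induced 4, and it ran from 0.365 in induced 2 to 5.22 in control 3. These shares come from 1 library per tumour and have no replicate error. The shares and ratios also depend on the exonic lengths used, which are the same in every tumour.

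**Figure D2:**
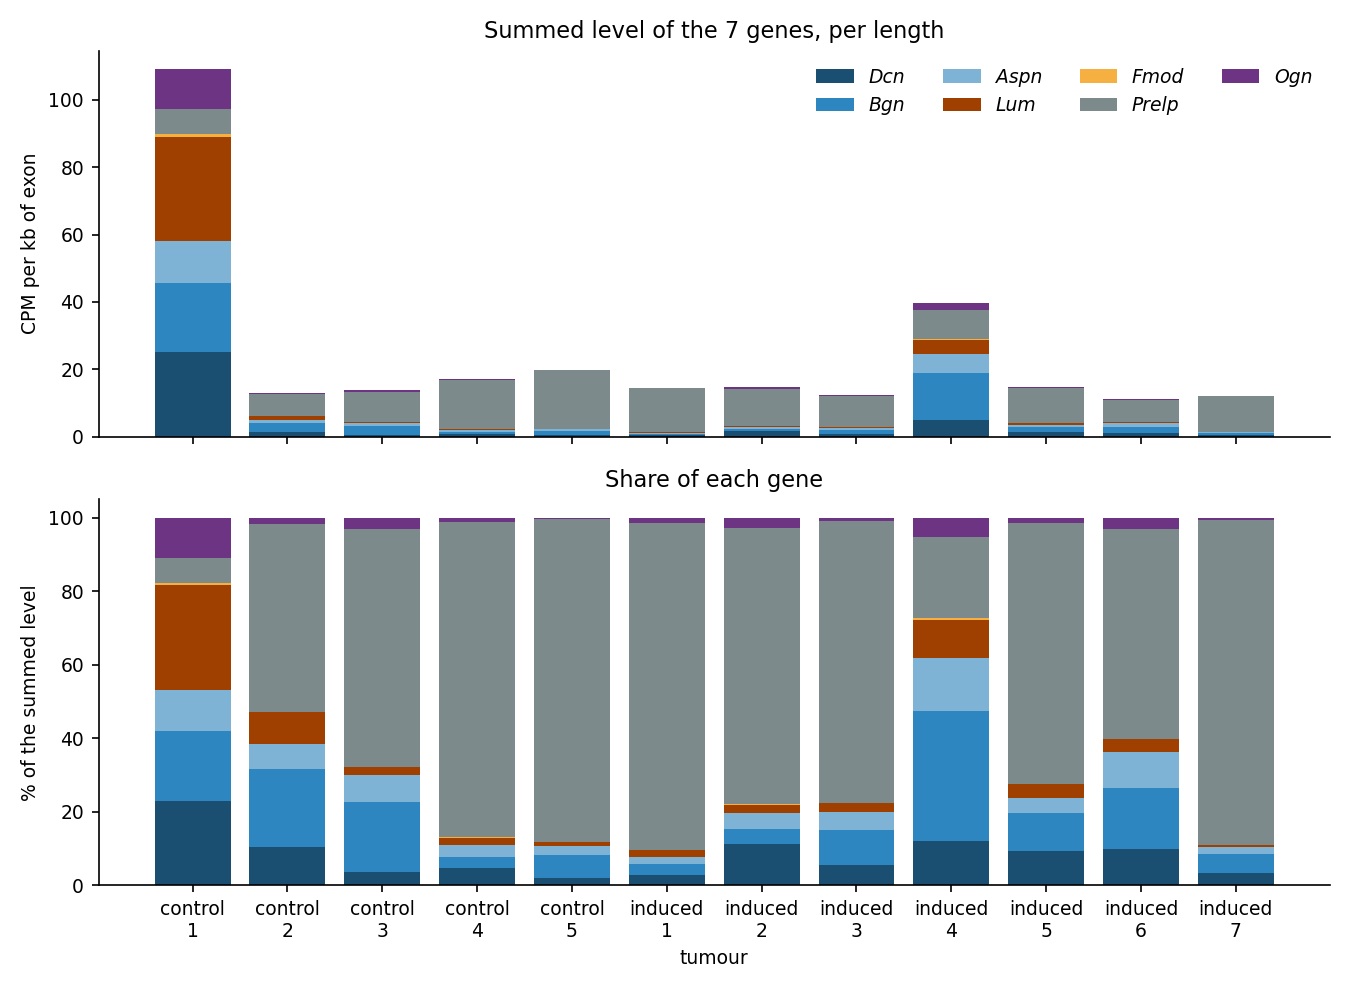
Top, summed level of the 7 SLRP genes in CPM per kb of exon for each of the 12 tumours, stacked by gene; bottom, the same as % of each tumour's sum. Control 1 reaches 109.1 and induced 4 reaches 39.7 CPM per kb, and Prelp (grey) is the largest part of every other bar.

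The comparison between groups asks whether these genes differed between tumours of mice given tamoxifen and tumours of mice given the control injection. All 6 tested members had a log2 fold change below 0, where 50.2% of all tested genes did. None of the 6 passed the threshold in edgeR's quasi-likelihood test, and 0% of all tested genes passed it (0 genes at an adjusted p under 0.05, and 324 genes or 2.13% at an unadjusted p under 0.05). The log2 fold change was -1.91 for Dcn (SE 1.00), -0.93 for Bgn (SE 0.98), -1.20 for Aspn (SE 0.95), -2.92 for Lum (SE 1.27), -2.36 for Ogn (SE 1.18) and -0.14 for Prelp (SE 0.24), each with an adjusted p of 0.99989. The smallest unadjusted p was 0.0387 for Lum, and 1.54% of tested genes were lower at an unadjusted p under 0.05. The groups overlapped for all 7 genes, while they did not for 0.0592% of tested genes.

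These fold changes rested on control 1. Without it the log2 fold change was 0.96 for Dcn, 0.71 for Bgn, 0.84 for Aspn, 0.84 for Lum and 1.17 for Ogn, so 5 of the 6 changed sign. Without induced 4 the values moved away from 0, to -2.60 for Dcn, -2.42 for Bgn, -2.42 for Aspn, -4.40 for Lum and -3.56 for Ogn. Without both tumours, a comparison chosen after seeing the data, they were 0.29 for Dcn (SE 0.45), -0.78 for Bgn (SE 0.48), -0.37 for Aspn (SE 0.42), -0.62 for Lum (SE 0.56), -0.02 for Ogn (SE 0.55) and -0.23 for Prelp (SE 0.25), with an adjusted p of 0.99986 for each and 0 of 15142 genes called. The sign of Prelp also turned, to 0.087, without control 5.

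**Figure D3:**
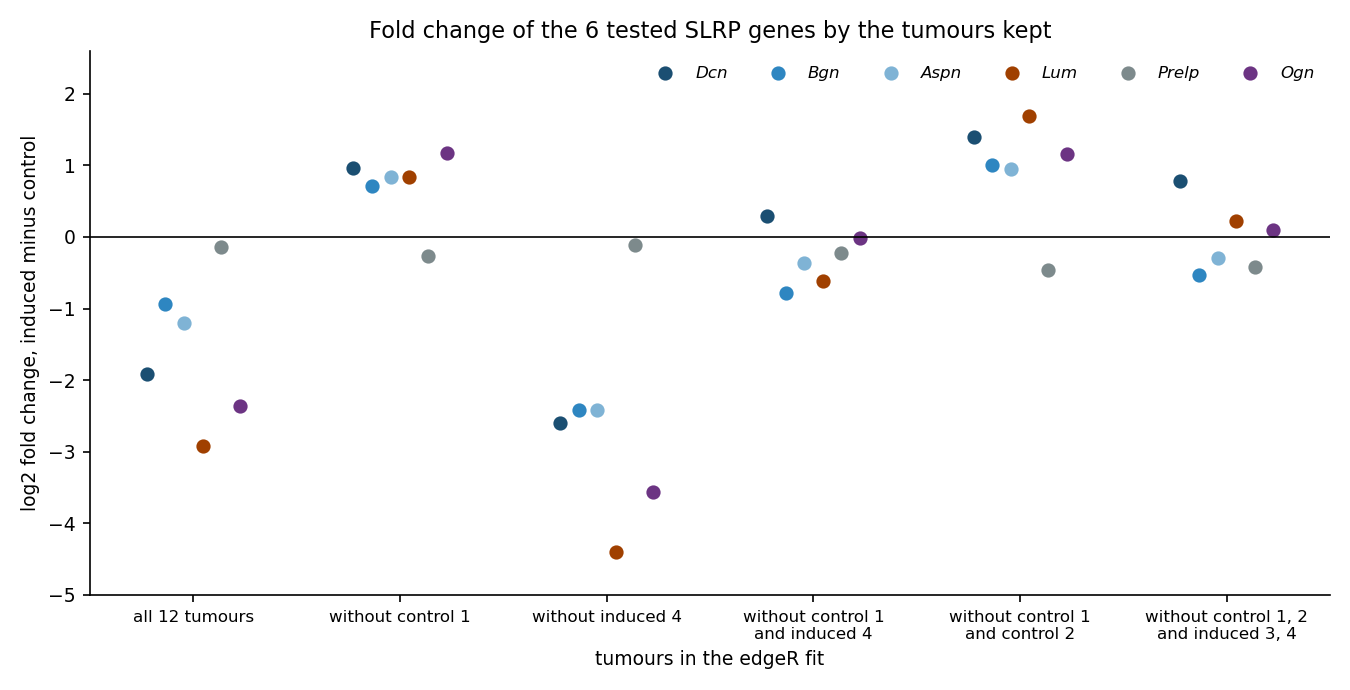
Log2 fold change (induced minus control) of the 6 tested SLRP genes in edgeR fits that keep different tumours, with 1 point per gene and a line at 0. With all tumours the points run from -2.92 (Lum) to -0.14 (Prelp), and without control 1 those of Dcn, Bgn, Aspn, Lum and Ogn lie between 0.71 and 1.17.

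On the scale of mean log2 CPM, where a single high tumour weighs less than in a count model, the differences were smaller and their 95% intervals wide. The difference (induced minus control) was -0.43 for Dcn (interval -2.81 to 1.64), -0.89 for Bgn (-3.17 to 1.47), -0.77 for Aspn (-2.93 to 1.29), -1.14 for Lum (-4.11 to 1.46) and -0.69 for Ogn (-3.36 to 1.68). For Prelp it was -0.07 (-0.68 to 0.52), which covers fold changes from 0.624 to 1.43. The intervals were obtained by inverting the exact permutation test over all 792 ways of choosing 5 of 12 tumours. For Dcn the interval covered fold changes from 0.143 to 3.12, so a larger change was compatible with these tumours for Dcn than for Prelp.

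In the authors' deposited table the log2 fold changes were -2.59 for Dcn, -2.33 for Bgn, -2.37 for Aspn, -4.32 for Lum, -2.22 for Fmod, -0.15 for Prelp and -3.54 for Ogn. The authors' deposited table left the p-value empty for 5 of the 7 genes, all but Bgn and Prelp, and for 0.88% of all rows. Bgn had a p of 0.00305 (adjusted p = 0.994) in the authors' deposited table. DESeq2 with its default settings, run here on the deposited counts, also gave -2.33 for Bgn and no p for the same 5 genes. That program replaces a count it deems an outlier where a group is large enough, and it did so in induced tumours only: it lowered Bgn in induced 4 from 2315 to 254 counts, Dcn from 763 to 154, Aspn from 369 to 46, Lum from 272 to 29 and Ogn from 148 to 17, and left control 1 as it was. With replacement and outlier filter off, DESeq2 gave -0.94 for Bgn, -1.92 for Dcn, -2.95 for Lum and -2.39 for Ogn, each with a DESeq2 adjusted p of 1.

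Across the 12 tumours, Dcn, Bgn, Aspn, Lum and Ogn rose and fell together. In the 10 pairs among them Pearson's r of log2 CPM was 0.826 to 0.954, highest for Aspn with Ogn, and Spearman's rho 0.587 to 0.895. The permutation p of r was 4e-05 to 0.00193, and all 10 pairs passed after adjustment over the 15 pairs computed (adjusted p up to 0.00289), while 9 of 10 passed by rho. Within the 7 induced tumours r was 0.816 to 0.946. Without control 1 and induced 4, which lie farthest from the median, r was 0.278 for Dcn with Bgn to 0.772 for Bgn with Aspn, and none of the 10 pairs passed (permutation test, adjusted p from 0.078 to 0.423), so the calls rest on those tumours. All 10 values stayed above 0, and rho over the same 10 tumours, given with no test, was 0.818 for Aspn with Ogn, 0.770 for Dcn with Lum and 0.685 for Bgn with Aspn, but 0.285 for Dcn with Bgn. Prelp ran the other way, with r of -0.590 to -0.488 in its 5 pairs, none of which passed by r (permutation p from 0.0427 to 0.109). By rho, which was -0.797 to -0.497, 4 of these 5 passed, with an adjusted p of 0.01 for Aspn.

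**Figure D4:**
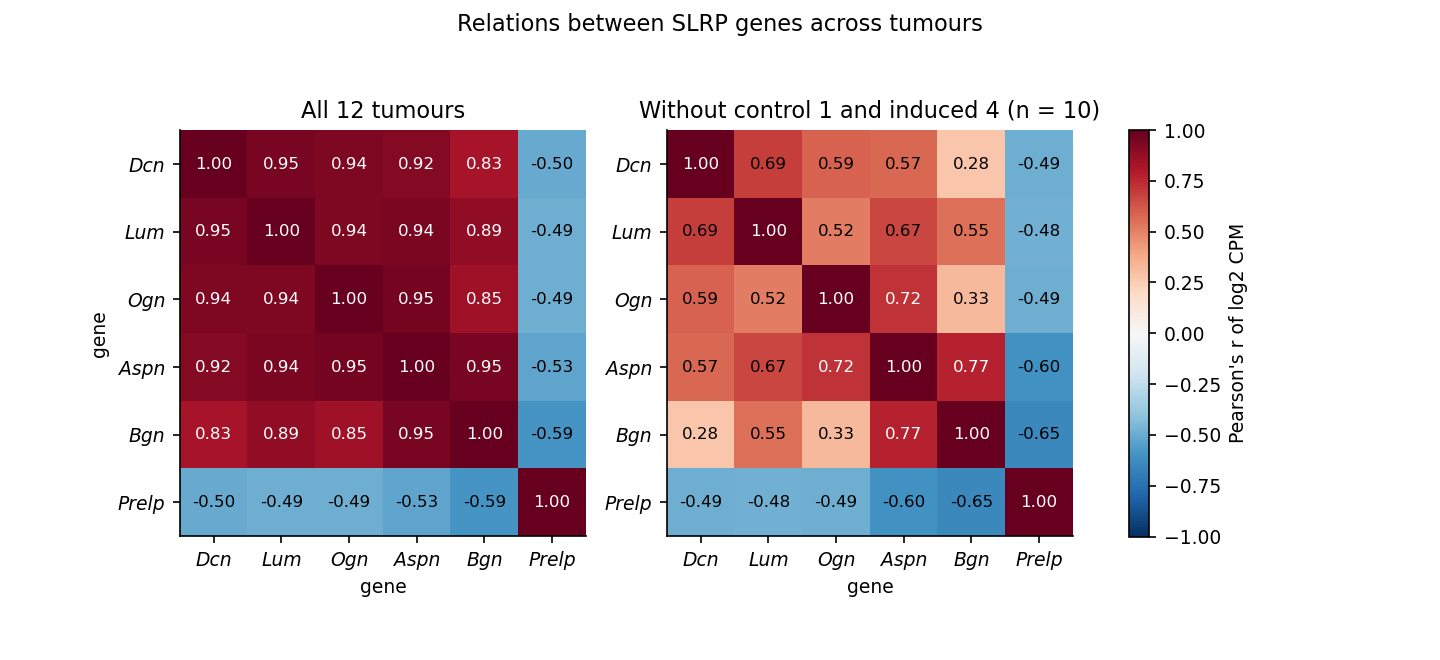
Pearson's r of log2 CPM between the 6 tested SLRP genes, over all 12 tumours (left) and without control 1 and induced 4 (right, n = 10), with red for positive and blue for negative values. The lowest r among Dcn, Lum, Ogn, Aspn and Bgn is 0.826 on the left and 0.278 on the right, and Prelp is negative with every other gene in both.

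The members' positions were compared with these patterns. Dcn (chr10:97479609-97518143, plus strand, GRCm38) and Lum (chr10:97565128-97572703, plus) are neighbours 47.0 kb apart, in a cluster with Kera and Epyc. Epyc, the class III member epiphycan, had 18 counts in control 1 and 0 in the other 11 tumours. Aspn (chr13:49544443-49567565, plus) and Ogn (chr13:49608046-49624501, plus) lie in a cluster with Omd, the class II member osteomodulin, and Ecm2, a related leucine-rich matrix protein. Omd had 25 counts in control 1, 3 in induced 4 and 0 to 7 in the others, and Ecm2 had 80 in control 1, 42 in induced 4 and 4 to 32 in the others. Prelp (chr1:133910304-133921414, minus) lies 2.3 kb from Optc, the class III member opticin, and 115.8 kb from Fmod (chr1:134037254-134048277, plus). Optc had 7 to 21 counts in each tumour, 7 in control 1 and 9 in induced 4, so control 1 held its lowest count. Bgn (chrX:73483602-73495933, plus) stands apart from the clusters. Of the exonic bases of Prelp, 9.68% are shared with Gm15851 on the opposite strand, and the sources used here do not say whether counting used strand.

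The promoters of members that moved together and of Prelp are shown to set their base composition side by side. RefSeq entries (GRCm38.p6) were found for 5 of the 7 genes, and the 250 bases before the annotated start are printed 5′ to 3′ on the gene's strand for Bgn (chrX:73483351-73483600), Aspn (chr13:49544193-49544442), Ogn (chr13:49607765-49608014) and Prelp (chr1:133921402-133921651). Capitals mark matches, on either strand, to the 5 motifs spelled out after the sequences.
Bgn: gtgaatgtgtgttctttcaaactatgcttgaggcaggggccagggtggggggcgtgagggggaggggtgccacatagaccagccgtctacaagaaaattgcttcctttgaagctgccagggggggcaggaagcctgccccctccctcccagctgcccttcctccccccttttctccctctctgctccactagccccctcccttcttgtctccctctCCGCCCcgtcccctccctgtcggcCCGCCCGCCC
Aspn: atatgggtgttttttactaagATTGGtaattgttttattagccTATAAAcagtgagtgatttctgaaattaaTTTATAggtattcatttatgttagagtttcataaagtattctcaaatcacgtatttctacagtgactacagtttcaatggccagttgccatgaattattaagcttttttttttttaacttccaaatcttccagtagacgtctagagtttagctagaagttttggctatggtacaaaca
Ogn: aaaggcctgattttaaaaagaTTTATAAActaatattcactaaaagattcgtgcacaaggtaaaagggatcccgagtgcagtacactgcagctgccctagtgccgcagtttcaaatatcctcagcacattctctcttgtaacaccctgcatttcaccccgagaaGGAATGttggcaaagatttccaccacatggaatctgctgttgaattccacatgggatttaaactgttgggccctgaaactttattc
Prelp: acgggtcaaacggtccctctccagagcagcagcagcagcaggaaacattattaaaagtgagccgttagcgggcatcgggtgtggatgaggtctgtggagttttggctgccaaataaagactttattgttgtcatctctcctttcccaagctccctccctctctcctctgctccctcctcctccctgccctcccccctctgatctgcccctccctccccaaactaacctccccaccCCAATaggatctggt
The GC content was 64.4% for Bgn, 30% for Aspn, 42.0% for Ogn and 55.6% for Prelp, so Bgn, Aspn and Ogn, which share a tumour pattern, spanned a wider range of GC content than the gap from Bgn to Prelp. The GGGCGG letters of a GC box were found only before Bgn among these 4, with 3 matches of which 2 overlap by 2 bases, and 32.7% of all 32851 promoter windows of this length held a match. TATAAA was found before Aspn (2 matches) and Ogn (2 overlapping matches), and in 12.4% of all windows. CCAAT was found before Aspn and Prelp and in 33.8% of all windows, and GGAATG before Ogn and in 12.6%. TGANTCA, found in 6.75% of all windows, had no match in these 4.

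Genes most like each member over the 12 tumours were taken as the 3 with the highest r among 10955 expressed genes, as a description. For Dcn these were Folr2 (0.964), a folate receptor known from tissue macrophages, Cryl1 (0.953) and Tmed4 (0.952). For Bgn they were Col1a2 (0.959), a chain of collagen I, Anxa6 (0.957) and Fn1 (0.952), which encodes fibronectin. Aspn was followed by Serping1 (0.975), the C1 inhibitor of complement, Nrp1 (0.964) and Sh3tc1 (0.960), and Lum by Tbc1d2b (0.979), Serping1 (0.978) and C1qb (0.977), a subunit of complement C1q. For Ogn they were Lifr (0.959), a cytokine receptor chain, Igf1 (0.955) and Thbd (0.955), which encodes thrombomodulin. Since control 1 and induced 4 lie farthest above the other tumours for these 5 members, picking by correlation favours genes high in that pair, as Col1a2 was with 560 CPM and 256 CPM against 4.92 CPM to 57.6 CPM in the others. Prelp was followed by Olfml3 (0.943), Dlc1 (0.929) and Col6a3 (0.924), a chain of collagen VI. Over the 10 tumours without control 1 and induced 4 these 3 values were 0.940, 0.923 and 0.930. Over the same 10 tumours the genes named for the other 5 members had r from 0.709 (Thbd with Ogn) to 0.93 (Folr2 with Dcn). Col6a3 held 466 CPM in control 1, 615 CPM in induced 4 and 443 CPM to 836 CPM in the others.

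Among the cell type markers, the fibroblast and leukocyte sums were highest in control 1 and induced 4, as the 6 SLRP genes were, and the other sums were not. Of 13 fibroblast markers tested, 12 were lower and 1 higher in induced tumours and 0 passed, with a median log2 fold change of -0.66 beside -0.00083 over all genes, and 10 of the 13 had control 1 and induced 4 as their highest pair. The exceptions were Pdgfra, Fbln2 and Dpt. Pdgfra held 122 CPM in control 1 and 142 CPM in induced 4, against a median of 143 CPM in the others. Fbln2 held 176 CPM and 218 CPM, and was highest in induced 3 at 228 CPM. Dpt held 69.0 CPM in control 1 but 14.3 CPM in induced 4, near the median of 12.9 CPM in the others. The 14 fibroblast markers in the table had sums from 817 CPM to 3723 CPM among control tumours and from 661 CPM to 2405 CPM among induced ones, with control 1 and induced 4 highest, and none was at 0 in any tumour. Leukocyte markers did likewise, with all 13 tested markers lower and 0 passing, and sums of 1746 CPM in control 1, 1020 CPM in induced 4 and 181 CPM to 605 CPM in the other tumours. In 7 of these 13 markers control 1 and induced 4 were the highest pair, beside 8.01% of all tested genes. An unadjusted p under 0.05 in edgeR was found for 4 of the 13, beside 2.13% of all tested genes. Cd3e and Cd8a were at 0 in at least 1 tumour. Of 11 pericyte and smooth muscle markers tested, 4 were higher, 7 lower and 0 passed, and their sum was 134 CPM in control 1, 220 CPM in induced 4 and 121 CPM to 204 CPM in the others. In 6 of these 11 markers control 1 and induced 4 were the highest pair, a share near that of the leukocyte markers. Pdgfrb, the largest term of the sum, went the other way, with 52.6 CPM in control 1, 80.7 CPM in induced 4 and a median of 97.8 CPM in the others. Endothelial markers had sums from 157 CPM to 227 CPM among control tumours and from 161 CPM to 226 CPM among induced ones, with 185 CPM in control 1 and 169 CPM in induced 4, and 7 were higher, 5 lower and 0 passed. Adipocyte markers summed to 222 CPM in control 1, 85.1 CPM in induced 4 and 38.3 CPM to 151 CPM elsewhere, with 1 of 9 tested markers higher, 8 lower and 0 passing. Skeletal muscle markers were lowest in control 1 at 9.05 CPM and reached 552 CPM in induced 4 and 674 CPM in control 4, with 5 higher, 6 lower and 0 passing. Cartilage, tendon and bone markers gave 4 tested genes, all higher and none passing. The sum of this list was lowest in control 1 and induced 4, with 318 CPM in induced 4 and 323 CPM in control 1 against 351 CPM to 918 CPM in the others. Most of it was Spp1 (232 CPM in control 1, 210 CPM in induced 4) and Sox9 (86.0 CPM and 99.3 CPM). Thbs4, which was not tested, was highest in this pair, with 3.16 CPM and 6.53 CPM against a median of 0.223 CPM in the others. The defining genes Acan, Comp, Matn1, Mkx, Thbs4, Ibsp and Bglap were at 0 in at least 1 tumour. The part of these cell types in the SLRP values was not tested, and in bulk tumours fewer cells of a type and less RNA per cell cannot be told apart.

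**Figure D5:**
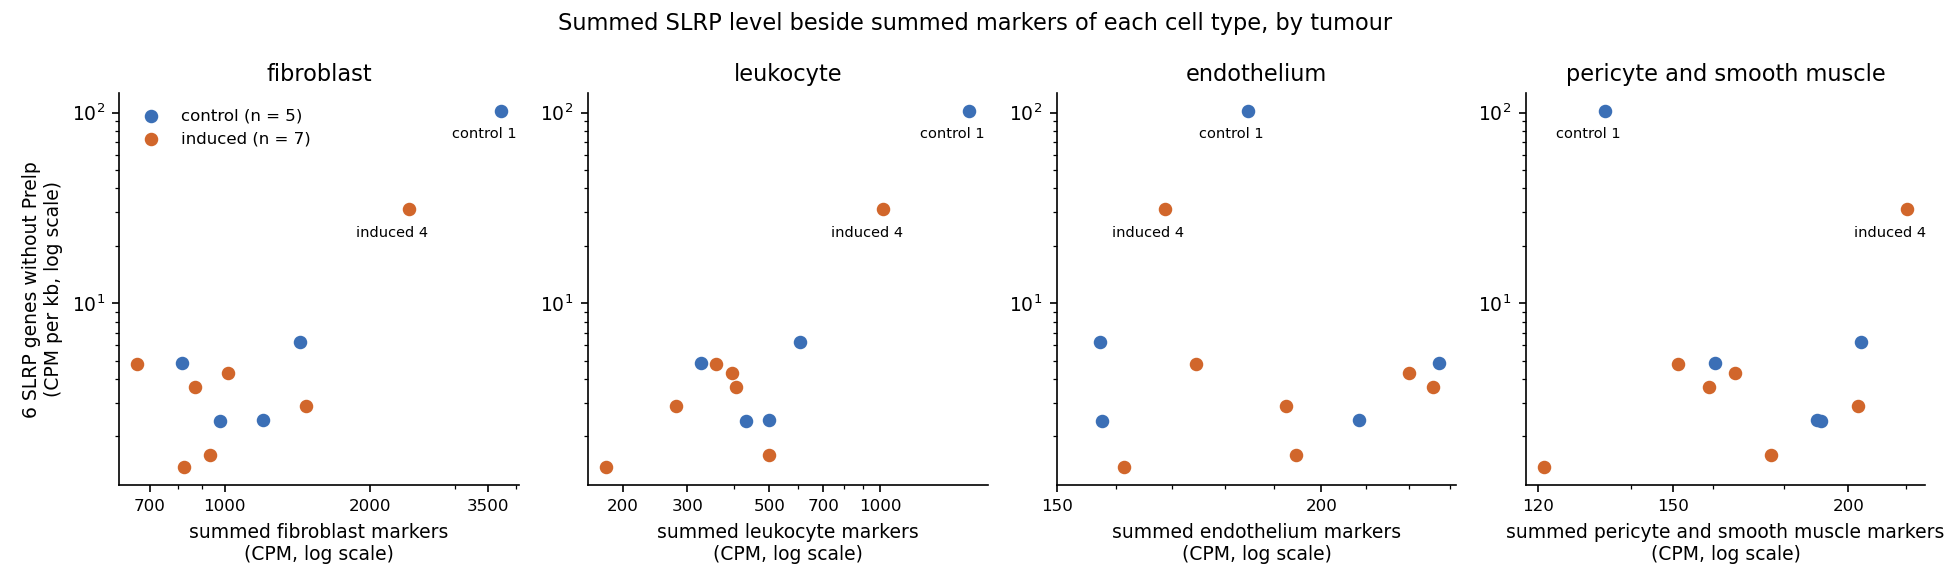
Summed level of Dcn, Bgn, Aspn, Lum, Fmod and Ogn (CPM per kb, log axis) against the summed level of fibroblast, leukocyte, endothelial, and pericyte and smooth muscle markers (CPM, log axis), with 1 point per tumour. Control 1 and induced 4 are the highest on both axes for fibroblast and leukocyte markers, while for endothelial markers they lie at 185 CPM and 169 CPM among the rest.

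Other genes of the SLRP pathway were taken from fixed lists, and none of them passed the threshold. Of 12 further family members and relatives, 6 were tested, 2 higher and 4 lower, with a median log2 fold change of -0.26. Podn, podocan, had the tumour pattern of Dcn, at 5.82 CPM in control 1, 2.47 CPM in induced 4 and 0.103 CPM to 1.03 CPM in the others. Tsku, tsukushi, a secreted inhibitor of BMP and Wnt signals, was even across tumours at 14.8 CPM to 20.5 CPM. Enzymes that build chondroitin and dermatan sulphate chains were split into 11 higher and 11 lower of 22 tested (median -0.0040), and 8 of the 22 had control 1 and induced 4 as their highest pair. Dsel, a homologue of dermatan sulphate epimerase, held 8.49 CPM in control 1, 2.25 CPM in induced 4 and 0.264 CPM to 0.759 CPM in the others, and Xylt1, which starts the chain on the core protein, 6.10, 2.73 and 1.17 CPM to 2.47 CPM. Csgalnact2, an enzyme that starts chondroitin chains, averaged 42.0 ± 7.73 CPM (SD, n = 5) without and 51.0 ± 5.85 CPM (SD, n = 7) with induction, a log2 fold change of 0.28 (SE 0.12, edgeR adjusted p = 0.99989). Keratan sulphate enzymes had 5 higher and 2 lower of 7 tested (median 0.10), and none had that pair of tumours highest.

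Collagens bound by SLRPs, with their processing and crosslinking enzymes, had 8 higher and 17 lower of 25 tested (median -0.18), and in 13 of the 25 control 1 and induced 4 were highest. Col14a1, a fibril-associated collagen, held 59.3 CPM in control 1, 13.8 CPM in induced 4 and 0.153 CPM to 1.37 CPM in the others. Loxl1, a crosslinking enzyme, held 38.6, 12.7 and 0.158 CPM to 1.70 CPM, and Adamts2, the procollagen N-proteinase, 36.8, 11 and 0.458 CPM to 1.70 CPM. Receptors and partners of decorin and biglycan had 10 higher and 13 lower of 23 tested (median -0.05), and 4 had that pair highest. Met, a receptor that decorin binds, averaged 339 ± 56.8 CPM (SD, n = 5) without and 392 ± 60.9 CPM (SD, n = 7) with induction. Cd14, the co-receptor of TLR2 and TLR4, averaged 13.9 ± 7.00 CPM (SD, n = 5) without and 10.3 ± 2.25 CPM (SD, n = 7) with it. Tgfbr2, a receptor for TGF-beta, held 110 CPM in control 1, 58.2 CPM in induced 4 and 26.9 CPM to 53.6 CPM in the others. Proteases reported to cut SLRPs had 5 higher and 8 lower of 13 tested (median -0.15), and 2 had that pair highest. An unadjusted p under 0.05 in edgeR was found for 4 of the 13, beside 2.13% of all tested genes, and none passed adjustment. Mmp9, gelatinase B, had a log2 fold change of -3.01 (SE 0.89), with 3.29 CPM in control 1, 4.25 CPM in induced 4 and 0.556 CPM to 56.5 CPM in the others. Control tumours averaged 13.4 ± 24.1 CPM (SD, n = 5) and induced ones 1.64 ± 1.20 CPM (SD, n = 7). The 56.5 CPM was a single control tumour, where the median of the others was 1.28 CPM. Mmp12, macrophage elastase, went the other way at 1.03 (SE 0.38), with 25.3 CPM in control 1, 42.4 CPM in induced 4 and 8.41 CPM to 61.1 CPM in the others. Mmp3, stromelysin 1, held 25.5 CPM in control 1, 2.40 CPM in induced 4 and 2.35 CPM to 6.97 CPM in the others, so it was high only in the former. Ctsk, cathepsin K, held 23.8 CPM in control 1 and 10.6 CPM in induced 4. The other tumours ranged from 0.953 CPM over a median of 2.49 CPM to 50.5 CPM in a single control tumour.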

How the data were processed

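The deposited table holds the authors' raw counts for each Ensembl gene, rlog values on the log2 scale, and a comparison of their own with log2 fold changes and p-values, per the file headers. The build was GRCm38 (mm10), per the submitters' processing notes; the sources used here do not give the aligner, counter, strand use or the authors' test. RNA was column-purified and 1.3 ug entered a SMARTER mRNA kit, per the labels' protocols. Columns were joined to tumours by library name. Counts were fitted with edgeR 4.0.16 in R 4.3.3: filterByExpr (minimum count 10) kept 15199 of 25116 genes, then TMM, a robust two-sided quasi-likelihood F test and Benjamini-Hochberg adjustment over all tested genes (threshold 0.05). On simulated counts with these library sizes, 70 of 100 genes changed 2-fold and 97 of 100 changed 4-fold were called, and 7 unchanged ones, among 15319 genes tested. The changed genes were drawn at random among well-counted genes, and no simulated tumour was set high for many genes together. The median SE over all tested genes was 0.183, against 0.95 to 1.27 for Dcn, Bgn, Aspn, Lum and Ogn. The simulated shares therefore do not give the power for those members. Log2 CPM used a prior count of 2. Exonic lengths (union of all annotated exons of a gene) and positions came from GENCODE M21. Correlations used 100000 permutations. Within a group, the chi-square per gene between libraries was 13.3 or more, so libraries differed by more than sampling noise, and each was treated as its own sample. This value cannot show whether tumours shared a mouse. Members, lists and rules were chosen with earlier results of these data known. Named genes were the members, their chromosomal neighbours, the 3 genes most correlated with each member, and up to 4 genes with the smallest p per list. Alternatives were other size factors, filters and tests (DESeq2 1.42.0, limma 3.58.1, sva 3.50.0), a replicate block and left-out tumours.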

Additional observations from a re-analysis of the deposited data

Results flagged for a closer look

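A single tumour stood apart from the rest of its group in 4 of the 14 combinations of gene and group examined, judged by the gap to the nearest tumour as a share of the group's range in log2 CPM against Dixon's 95% critical value for a group of that size. Chance gives such a gap in about 1 in 20 groups, and the genes are not independent of each other. Control 1 stood apart for Dcn, with a share of 0.719, and for Aspn, with 0.779. Induced 4 stood apart for Bgn, with 0.585, and for Fmod, with 0.62, although Fmod rests on 16 counts there.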

How the results depend on the processing

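None of the 153 alternative fold changes of the 6 tested genes passed the threshold (adjusted p from 0.731 to 1 where given), and 20 of them turned the sign. DESeq2 with its default settings gave no adjusted p for Dcn, Aspn, Lum and Ogn, so these values could not pass. Leaving out 1 tumour at a time gave ranges of -2.60 to 0.96 for Dcn, -2.42 to 0.71 for Bgn, -2.42 to 0.84 for Aspn, -4.40 to 0.84 for Lum, -3.56 to 1.17 for Ogn and -0.29 to 0.087 for Prelp. Positive values came without control 1, and for Prelp without control 5. Without control 1 and control 2 the fold changes were 1.39 for Dcn, 1.00 for Bgn, 0.95 for Aspn, 1.68 for Lum and 1.16 for Ogn. Without control 1, control 2, induced 3 and induced 4 they were 0.78 for Dcn, 0.22 for Lum and 0.091 for Ogn, and without control 1 and induced 4, an alternative added after seeing the data, 0.29 for Dcn. With limma-voom and sample weights Dcn was at 0.50 and Ogn at 0.43, where control 1 had a weight of 0.326. With 1 surrogate variable Dcn was at 0.14. With the replicate block Dcn was at 0.41 and Prelp at 0.026, and no label says what a replicate number stands for. The correlation of same-numbered deviations was over 0.1 in 1 of 5 pairs, and 0 of 5 control tumours correlated best with their own number. These correlations follow the large differences between single tumours, so they cannot tell whether same-numbered tumours shared a cage or batch. The number of genes past the threshold was 0 in 25 of 26 alternatives (995 at an unadjusted p under 0.05 in limma-voom and 607 in DESeq2) and 1 in DESeq2 without its outlier filter, also added later. That gene, named after its value was seen, was Ighv1-12 with 2.91 CPM in control 1 and 0 elsewhere. No relation between members changed sign in 30 alternatives, but without control 1, control 2, induced 3 and induced 4 r fell to 0.131 from 0.826 for Dcn with Bgn, to 0.349 from 0.888 for Bgn with Lum and to 0.367 from 0.851 for Bgn with Ogn, and r among Dcn, Bgn, Aspn, Lum and Ogn ranged from 0.131 to 0.778. Depth limits Fmod and the lowest values of Lum and Ogn, which rest on 4 counts.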
